A study of Mus musculus with 8 samples.

Results

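RAW 264.7 macrophages that received LPS alone were compared with untreated macrophages of the same line, and the genes that rose or fell were described across the whole array. The comparison used 4 of the 8 arrays of the series, 2 labelled LPS and 2 labelled control, and 8908 genes were tested of 18193 with a named probe set. RAW 264.7 is a single mouse macrophage-like line from a tumour raised with Abelson murine leukemia virus, so the arrays describe 1 line and not macrophages of a tissue. The LPS group had a control treatment in place of menthol and then lipopolysaccharide at 100 ng/ml for 6 h, and the control group received neither agent. The menthol group (M) and the menthol and LPS group (LPS+M), with 2 arrays each, received menthol for 1 h, and LPS+M then had the same LPS treatment for 6 h. No harvest time is given for control and M, and time in culture therefore cannot be told apart from LPS. The labels describe biological replicates without stating that separate cultures were used. The p-values then cover the spread of these arrays alone, and it may be technical.

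LPS is a glycolipid of the outer membrane of Gram-negative bacteria. Macrophages sense it through TLR4 with the help of CD14 and the protein MD-2. Signals through the adaptor MyD88 activate NF-κB and MAP kinases and with them cytokine genes, while signals through the adaptor TRIF activate IRF3, interferon-β and then a second wave of interferon-stimulated genes. The same pathways also induce their own inhibitors.

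The arrays were alike in their distribution. Medians over all probe sets lay between 2.99 and 3.04 on the log2 scale for the 8 arrays, and replicate arrays correlated at 0.9988 to 0.9994 over the probe sets, whose values are not independent of each other. The macrophage markers held: 9 of the 9 markers with a named probe set passed the filter on low signal, and their mean signal was 12.1 to 12.3 on the 4 arrays. None of the markers for T cells, B cells, dendritic cells, mast cells, fibroblasts and epithelial cells passed it, and their means were 2.18 to 2.88. Of 6 neutrophil markers only S100a8 passed. Among the macrophage markers Adgre1, an adhesion receptor gene, rose by 0.95 ± 0.07, Fcgr1 fell, and the other 7 were not called.

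LPS raised and lowered similar numbers of genes, but the rises were larger. Of the 8908 genes, 282 rose (3.17%) and 264 fell (2.96%), where a call required both an adjusted p under 0.05 from limma (Benjamini-Hochberg) and a change of at least 1.5-fold. Counts of called genes in the gene lists below are to be read beside these shares. For genes with several probe sets the value from their average is also given where it differs much. A change of at least 2-fold was reached by 126 of the risen and 58 of the fallen genes, at least 4-fold by 34 and 2, and at least 8-fold by 15 and 0. The median log2 fold change was 0.937 among the risen genes, -0.759 among the fallen genes and -0.0303 over all tested genes. Among the risen genes, 17 had a mean control signal under 4.84, the filter value, and among the fallen genes 11 had a mean LPS signal under it. With the adjusted p alone and no minimum fold, 813 genes were higher (9.13%) and 1122 lower (12.6%). Both LPS arrays lay above both control arrays in 27.3% of all tested genes and below both in 37.9%. Called genes were picked by their change on these arrays, so groups of arrays that do not overlap add no support for them. This holds for every remark below that the arrays of called genes lie apart. Just inside the 1.5-fold minimum lay Tmem176a at 0.59 and Mvb12b at -0.59, and just outside lay Zfp462 at 0.58 and Nedd4l at -0.58, all log2 fold changes. Tmem176a was not called with control array 1 (0.51) or LPS array 1 (0.53) left out. Mvb12b was not called averaged over its probe sets (-0.17), when quantile normalized (-0.57), with arrays shifted to 1 median (-0.58), or with control array 1 (-0.51) or LPS array 1 (-0.57) left out. Zfp462 was called when quantile normalized (0.63) or with LPS array 1 left out (0.69). Nedd4l was called with control array 2 (-0.66) or LPS array 1 (-0.63) left out.

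**Figure D1:**
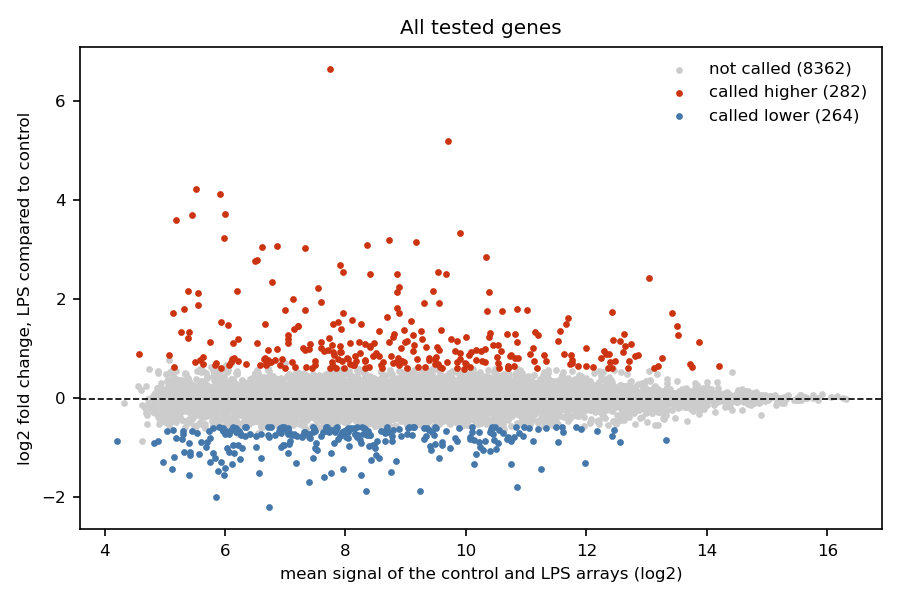
Log2 fold change of LPS compared to control (y axis) against the mean signal of the 4 arrays (x axis, log2) for the 8908 tested genes, with the dashed line at the median of all genes. The 282 genes called higher reach beyond 6 on the y axis, while the 264 genes called lower stay close to or above -2.

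The largest rise was in Acod1, the gene of the itaconate-making enzyme of activated macrophages. Its signal was 4.24 and 4.61 on the control arrays and 11.08 and 11.06 on the LPS arrays, a log2 fold change of 6.64 ± 0.12 (± standard error of the limma fit, adjusted p = 2.48e-07, n = 2 arrays per group). The acute phase gene Saa3 had 7.06 and 7.16 on the control arrays and 12.23 and 12.36 on the LPS arrays and rose by 5.18 ± 0.11 (adjusted p = 2.56e-07). Lcn2, which encodes an iron-scavenging protein of innate defense, had 6.72 and 6.90 in control and 9.93 and 9.85 with LPS. It rose by 3.08 ± 0.13 (adjusted p = 5.75e-06), and Saa3 and Lcn2 were the only risen genes of 9 tested genes of complement and the acute phase. For these 3 genes the LPS arrays were more than 2 log2 units above the control arrays, and the 2 arrays of each group lay close together. Gpr18, a G protein-coupled receptor, had 3.71 and 3.52 in control and 7.30 and 7.30 with LPS and rose by 3.69 ± 0.19. Pstpip2, an adaptor of the actin cytoskeleton, had 3.60 and 3.18 in control and 6.88 and 7.07 with LPS and rose by 3.58 ± 0.19, or by 2.12 averaged over its probe sets. The death receptor gene Fas had 4.83 and 5.37 in control and 8.13 and 8.14 with LPS and rose by 3.04 ± 0.18. Control signals of Acod1, Gpr18 and Pstpip2 lay under the filter value of 4.84, so the sizes of their rises are uncertain. The same holds for Tnfaip3, Ifit1, Gbp2b, Traf1, Cd274 and Cd83 below, which are also among the 17 risen genes with such control signals.

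**Figure D2:**
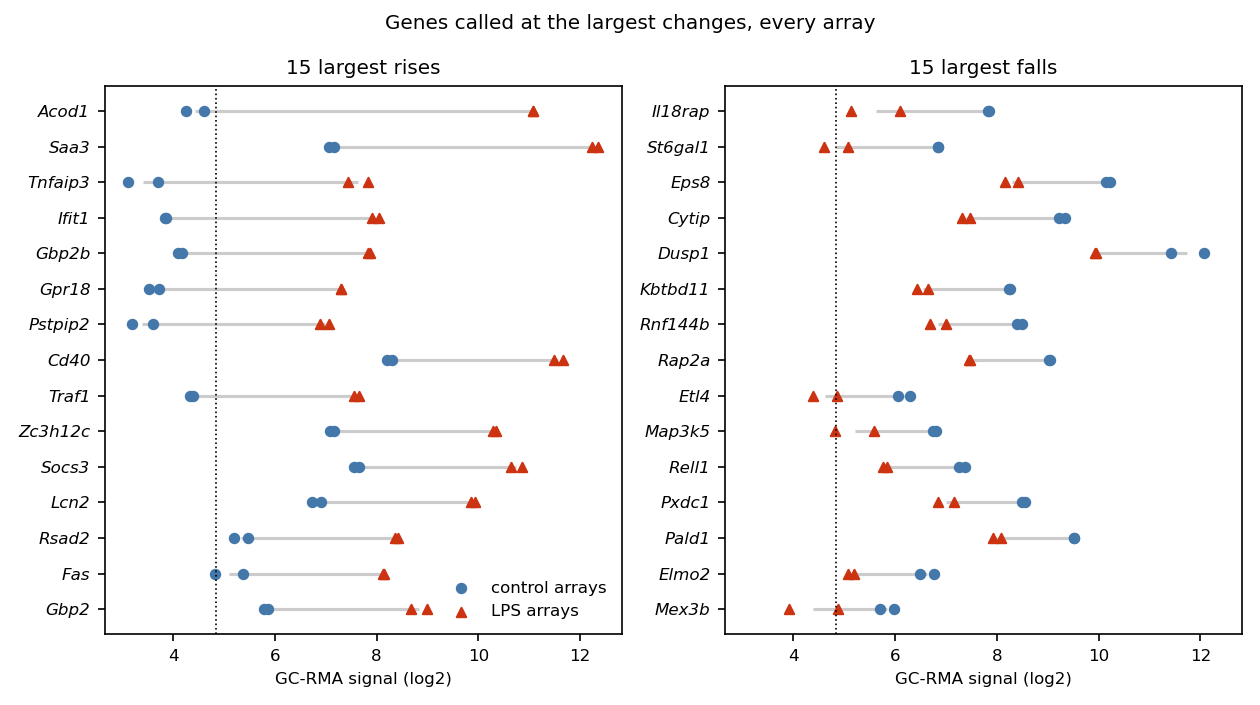
Signal (x axis, log2) on each control array (circles) and LPS array (triangles) for the 15 genes with the largest rise (left) and the 15 with the largest fall (right), with grey lines joining the group means and the dotted line at the filter value of 4.84. No gene shown has overlapping groups, and Acod1 spans the widest range, from 4.24 to 11.08. The genes were picked by their change on these arrays, so the lack of overlap is no further support.

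Cytokine and chemokine genes rose in part. Of 29 cytokine genes on the array 12 passed the filter and were tested. Of these 4 rose and none fell, and the median was 0.355, or 0.00995 over all 29. Tnf, an early cytokine of activated macrophages, had 8.29 and 8.55 on the control arrays and 10.93 and 10.92 on the LPS arrays and rose by 2.50 ± 0.10 (adjusted p = 3.61e-06). The LPS arrays lay closer to each other than the control arrays did, and above both. Il1rn, which encodes the antagonist of the interleukin-1 receptor, rose by 0.99 ± 0.08, Ebi3, a subunit of interleukins 27 and 35, by 0.80 ± 0.07, and the macrophage growth factor gene Csf1 by 1.32 ± 0.21. Csf1 had 0.34 averaged over its probe sets and was not called. Of 13 CC chemokine genes 8 were tested, of which 4 rose and none fell, with a median of 0.621, or 0.422 over all 13. Ccl3, which attracts monocytes and lymphocytes, had 11.83 and 11.83 in control and 14.17 and 14.30 with LPS and rose by 2.41 ± 0.09 (adjusted p = 3.43e-06). Ccl5 had 7.83 and 7.93 in control and 9.15 and 9.29 with LPS and rose by 1.34 ± 0.08. Ccl4 rose by 1.26 ± 0.12. The monocyte attractant gene Ccl2 already had a signal of 12.35 on both control arrays and rose by 0.73 ± 0.09. All 4 chemokine genes had both LPS arrays above both control arrays, beside 27.3% of all tested genes, and they were picked by their change on these arrays. Of 12 CXC chemokine genes 3 were tested and 2 rose, and the median over all 12 was 0.014. Cxcl10, an attractant of T cells that interferon induces, had 6.48 and 6.65 in control and 9.24 and 9.25 with LPS and rose by 2.68 ± 0.13 (adjusted p = 9.68e-06). Cxcl2, an attractant of neutrophils, rose by 0.88 ± 0.12. The study names many of these genes from the same arrays: of its 21 tested genes 15 rose and 2 fell, which is no independent evidence of their direction.

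Many genes of NF-κB subunits, their inhibitors and their kinases rose. All 13 members on the array were tested, 7 rose and none fell, each had a log2 fold change above 0, and their median was 0.851. Averaged over probe sets 6 rose and the median was 0.539, and the methods' t-test at an unadjusted p under 0.05 called 5 higher. Nfkbiz, which encodes the nuclear cofactor IκBζ, had 8.96 and 8.86 on the control arrays and 11.63 and 11.88 on the LPS arrays and rose by 2.84 ± 0.10 (adjusted p = 2.6e-06), or by 1.63 averaged over its probe sets. The kinase gene Ikbke had 8.43 and 8.30 in control and 10.51 and 10.55 with LPS and rose by 2.16 ± 0.08 (adjusted p = 3.09e-06). Nfkbia, which encodes IκBα, the inhibitor that holds NF-κB in the cytoplasm, had 13.30 and 13.31 in control and 14.40 and 14.46 with LPS and rose by 1.12 ± 0.10 (adjusted p = 0.000228). All 3 genes had LPS arrays above both control arrays by more than the distance between replicates. Bcl3, a nuclear IκB protein, rose by 1.77 ± 0.12, the subunit gene Nfkb2 by 1.22 ± 0.11 and the subunit gene Relb by 0.94 ± 0.10. Nfkbib rose by 0.85 ± 0.14, but its average over probe sets, 0.43, was not called.

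The sequence before the start of Nfkbia and of Cxcl10 is shown because both genes rose and hold the κB motif, the letters that NF-κB dimers bind. The sequences are the 250 bases before the annotated start, on the gene's strand, from RefSeq (GRCm38.p6). Capitals mark the κB motif in both and, in Cxcl10, the motif GAAANNGAAA of the interferon-stimulated response element, which lies farthest from the start. Nfkbia is read from chr12:55492648-55492897 on the minus strand and Cxcl10 from chr5:92348890-92349139 on the minus strand.
Nfkbia: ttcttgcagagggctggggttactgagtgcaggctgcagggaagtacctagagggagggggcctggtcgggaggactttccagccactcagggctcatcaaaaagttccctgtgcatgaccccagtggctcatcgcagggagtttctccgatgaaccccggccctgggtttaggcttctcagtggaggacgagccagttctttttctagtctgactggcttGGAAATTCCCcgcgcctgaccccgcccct
Cxcl10: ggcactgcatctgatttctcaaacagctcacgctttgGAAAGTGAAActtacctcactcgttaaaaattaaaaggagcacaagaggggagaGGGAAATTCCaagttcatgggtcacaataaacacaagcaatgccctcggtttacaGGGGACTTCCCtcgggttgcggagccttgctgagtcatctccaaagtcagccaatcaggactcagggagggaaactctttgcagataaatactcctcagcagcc
In Nfkbia the motif lay 29 to 20 bases before the start. In Cxcl10 it lay 159 to 150 and 104 to 94 bases before it, the latter being overlapping matches, and GAAANNGAAA lay 213 to 204 bases before it. Promoters, 250 bases before to 50 after the start, were found for 7356 of the tested genes, 224 of the risen and 208 of the fallen genes, and 7 motifs were searched on both strands, each counted whether or not it overlapped another. A gene with several starts counted once if any of its promoters held the motif. The κB motif was in 38 of the 224 promoters of risen genes (17.0%), in 23 of the 208 of fallen genes (11.1%) and in 12.1% of those of all tested genes. It was in 6 of the 10 promoters of the NF-κB family list, a share that depends on the list's members and not on their response. Of the risen genes of this list with a promoter, Bcl3, Nfkb2 and Nfkbia held it, while Ikbke and Nfkbib did not. TGANTCA, the AP-1 motif, was in 10.7% of risen, 11.5% of fallen and 5.79% of all tested genes. For TTCNNNGAA, the STAT motif, the shares were 9.82%, 5.77% and 7.94%, and for TGACGTCA, the CREB motif, they were 2.23%, 1.44% and 3.86%. A match only says that these letters stand in the promoter.

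Inhibitors of the pathway were among the largest rises. Of 37 genes of feedback on Toll-like receptor, cytokine and MAP kinase signaling 32 were tested, of which 9 rose and 2 fell, with a median of 0.129, or 0.0908 over all 37. Tnfaip3, which encodes the ubiquitin-editing enzyme A20, had 3.12 and 3.71 on the control arrays and 7.83 and 7.44 on the LPS arrays and rose by 4.22 ± 0.27 (adjusted p = 4.08e-05). Averaged over its probe sets it rose by 2.11. Zc3h12c, which encodes an RNase of the regnase family, had 7.09 and 7.15 in control and 10.28 and 10.34 with LPS and rose by 3.19 ± 0.08 (adjusted p = 9.49e-07). Its relative Zc3h12a, which degrades cytokine mRNAs, had 4.80 and 5.46 in control and 7.93 and 7.84 with LPS and rose by 2.75 ± 0.19, or by 1.26 averaged over its probe sets. Irak3, which encodes the inactive kinase IRAK-M, had 7.79 and 7.77 in control and 10.01 and 10.01 with LPS and rose by 2.23 ± 0.06 (adjusted p = 9.49e-07), with its replicates close together. Socs3, an inhibitor of JAK and STAT signaling, rose by 3.14 ± 0.12, Tnip1, a partner of A20, by 1.75 ± 0.07, and Tnfaip2 by 0.79 ± 0.09. Among MAP kinase phosphatases, Dusp1 had 12.07 and 11.42 in control and 9.96 and 9.93 with LPS and fell by 1.80 ± 0.18 (adjusted p = 0.000408), and Dusp6 had 11.17 and 11.04 in control and 10.32 and 10.29 with LPS and fell by 0.80 ± 0.07 (adjusted p = 0.000238). Both LPS arrays were under both control arrays for Dusp1 and Dusp6, although the control arrays of Dusp1 lay far apart. Dusp2, of the same family, rose by 0.65 ± 0.17, and was not called with no filter (0.65) or with control array 1 (0.64), control array 2 (0.66) or LPS array 2 (0.43) left out.

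Receptors and adaptors of the pathway were split. Of 27 tested genes 4 rose and 2 fell, and their median of -0.0136 was close to that of all genes. Tlr2, the receptor of bacterial lipoproteins, had 11.50 and 11.61 on the control arrays and 13.27 and 13.28 on the LPS arrays and rose by 1.72 ± 0.07 (adjusted p = 4.27e-06). Its partner gene Tlr1 had 8.53 and 8.44 in control and 9.73 and 9.77 with LPS and rose by 1.26 ± 0.08. The kinase genes Map3k8, which encodes TPL2, and Irak2 rose by 2.16 ± 0.14 and 0.80 ± 0.07. Tlr4, the LPS receptor itself, had 11.54 and 11.62 in control and 11.01 and 11.00 with LPS. Its log2 fold change of -0.57 ± 0.09 (adjusted p = 0.00375) was under the 1.5-fold minimum, and it was called averaged over its probe sets (-0.75) and with control array 1 left out (-0.61). The co-receptor gene Cd14 had a log2 fold change of 0.16 ± 0.08 and was not called. Tlr7, a receptor of single-stranded RNA, had 10.46 and 10.42 in control and 9.80 and 9.69 with LPS and fell by 0.69 ± 0.08 (adjusted p = 0.000688). The adaptor gene Traf6 fell by 0.92 ± 0.19, but was not called with no filter (-0.92), averaged over its probe sets (-0.27), or without the first (-0.97) or second (-0.87) control array, and it had -0.60 with LPS array 1 left out.

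Interferon-stimulated genes rose in part, and so did most of the tested interferon-inducible GTPases. Of 50 interferon-stimulated genes 38 were tested, of which 13 rose and 1 fell, with a median of 0.288, or 0.236 over all 50. Of 11 guanylate-binding proteins and related GTPases, which attack vacuoles that hold pathogens, 8 were tested. Of these 5 rose and none fell, all 8 were above 0, and the median was 1.27, or 0.547 over all 11. Gbp8 of the same list lay under the filter, with 4.89 and 4.64 in control and 3.40 and 3.38 with LPS. It was called lower in a fit with no filter, at -1.37 (limma, adjusted p = 0.00481). Ifit1, which binds viral RNA, had 3.86 and 3.84 on the control arrays and 8.04 and 7.90 on the LPS arrays and rose by 4.12 ± 0.15 (adjusted p = 3e-06). Rsad2, which encodes the antiviral enzyme viperin, had 5.20 and 5.46 in control and 8.41 and 8.36 with LPS and rose by 3.06 ± 0.19 (adjusted p = 3.67e-05). Gbp2b had 4.10 and 4.18 in control and 7.84 and 7.86 with LPS and rose by 3.71 ± 0.11 (adjusted p = 1.57e-06). Gbp2 had 5.78 and 5.86 in control and 8.68 and 8.99 with LPS and rose by 3.02 ± 0.13. Among these 4 genes every LPS array was more than 2 log2 units above every control array. Gbp3 rose by 2.53 ± 0.09, Gbp7 by 1.87 ± 0.18, and Igtp by 0.67 ± 0.12, while Irgm1 of the same list had 0.13 ± 0.07 and was not called. The nucleotide kinase gene Cmpk2 had 6.10 and 6.17 in control and 7.82 and 8.44 with LPS and rose by 1.99 ± 0.19, or by 1.00 averaged over its probe sets. Usp18, an inhibitor of interferon receptor signaling, rose by 1.53 ± 0.15, the oligoadenylate synthase-like gene Oasl1 by 1.32 ± 0.16, and Rtp4 by 1.76 ± 0.16 or, averaged over its probe sets, 0.89. The RNA sensor gene Ifih1 rose by 0.71 ± 0.12. Pml, which organizes nuclear bodies, fell by 0.61 ± 0.11, and was not called averaged over its probe sets (-0.24), when quantile normalized (-0.55) or with LPS array 2 left out (-0.46). Igtp was not called with control array 1 left out (0.53).

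The sequences before Ifit1, Rsad2 and Gbp2 are shown because these genes rose by more than 3 log2 units and each holds GAAANNGAAA or, on the other strand, its reverse. Capitals mark these letters in the 250 bases before the start (RefSeq, GRCm38.p6). Ifit1 is read from chr19:34640639-34640888 on the plus strand, Rsad2 from chr12:26456453-26456702 on the minus strand and Gbp2 from chr3:142620413-142620662 on the plus strand.
Ifit1: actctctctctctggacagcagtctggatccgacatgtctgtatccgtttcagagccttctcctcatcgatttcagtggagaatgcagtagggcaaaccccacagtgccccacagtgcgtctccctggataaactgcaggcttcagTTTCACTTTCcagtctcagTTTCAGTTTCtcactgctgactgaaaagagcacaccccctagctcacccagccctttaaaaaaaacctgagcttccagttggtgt
Rsad2: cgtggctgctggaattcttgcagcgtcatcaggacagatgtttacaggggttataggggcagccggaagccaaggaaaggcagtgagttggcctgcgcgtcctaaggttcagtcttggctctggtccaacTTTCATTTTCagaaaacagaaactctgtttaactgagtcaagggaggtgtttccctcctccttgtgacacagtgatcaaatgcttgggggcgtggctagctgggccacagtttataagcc
Gbp2: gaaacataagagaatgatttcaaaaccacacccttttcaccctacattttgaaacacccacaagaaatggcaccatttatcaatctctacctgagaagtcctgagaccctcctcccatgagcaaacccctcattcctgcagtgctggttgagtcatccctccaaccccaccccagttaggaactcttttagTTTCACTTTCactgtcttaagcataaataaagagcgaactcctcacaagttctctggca
The motif stood 104 to 95 and 85 to 76 bases before the start of Ifit1, 120 to 111 bases before that of Rsad2 and 59 to 50 bases before that of Gbp2. It was in 7 of the 8 promoters found for the GTPase list and in 10 of the 30 found for the interferon-stimulated list. These shares depend on the lists' members and not on their response to LPS. Of the risen genes of the latter list with a promoter, Ifit1, Rsad2 and Ifih1 held the motif, while Cmpk2, Ifit2, Oasl1, Slfn2 and Xaf1 did not. Over all risen genes GAAANNGAAA was in 23 of 224 promoters (10.3%), over the fallen genes in 10 of 208 (4.81%), over all tested genes in 3.77% and over all 27025 genes with a promoter in 3.99%. Of the 29 genes with a promoter that rose at least 4-fold, 8 held it (27.6%). The AP-1 motif was also in 8 of these 29 (27.6%), beside 5.79% of all tested genes, and the κB motif in 5 (17.2%), beside 12.1%.

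Some genes of costimulation and adhesion rose, and no tested gene of the MHC and antigen processing was called. Of 20 genes of costimulation and adhesion 12 were tested, of which 8 rose and none fell, with a median of 0.78, or 0.158 over all 20. The 8 were 5 with control array 1 left out and 3 by the methods' t-test at an unadjusted p under 0.05. Cd40, which receives signals from T cells, had 8.19 and 8.30 on the control arrays and 11.48 and 11.67 on the LPS arrays and rose by 3.32 ± 0.11 (adjusted p = 2.21e-06). Icam1, a ligand of leukocyte integrins, had 9.72 and 9.72 in control and 11.49 and 11.45 with LPS and rose by 1.75 ± 0.06 (adjusted p = 2.21e-06). Cd274, which encodes the inhibitory ligand PD-L1, had 4.37 and 4.48 in control and 5.96 and 6.47 with LPS and rose by 1.79 ± 0.15 (adjusted p = 0.000164). In these 3 genes the 2 groups of arrays stood apart by more than 1 log2 unit. Clec2d, a ligand of an inhibitory receptor of natural killer cells, rose by 0.91 ± 0.08 and the tetraspanin gene Cd82 by 0.79 ± 0.08, though the latter was not called averaged over its probe sets (0.40). Cd86, which costimulates T cells, had -0.08 ± 0.07 and was not called. Of 16 tested genes of the MHC and antigen processing none was called, their range was -0.225 to 0.498 and their median 0.0269, and at an adjusted p alone 2 of the 16 were higher, beside 9.13% of all genes. With 3.17% of all genes called higher and 2.96% lower, no call among 16 genes says little. H2-K1, a class I heavy chain, had 13.57 and 13.67 in control and 13.63 and 13.59 with LPS, and its groups overlapped.

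Genes of cell survival and death rose in part, and none fell. Of 28 tested genes 8 rose, with a median of 0.112. Traf1, an adaptor of TNF receptors, had 4.34 and 4.39 on the control arrays and 7.64 and 7.54 on the LPS arrays and rose by 3.23 ± 0.22 (adjusted p = 5.12e-05). Casp4, the inflammatory caspase that senses intracellular LPS, had 8.49 and 8.71 in control and 10.51 and 10.50 with LPS and rose by 1.91 ± 0.10 (adjusted p = 1.56e-05). Birc3, an inhibitor of apoptosis, had 10.22 and 10.14 in control and 11.48 and 11.43 with LPS and rose by 1.28 ± 0.07. For Traf1, Casp4 and Birc3 alike, the LPS arrays lay above the control arrays and apart from them. The stress gene Gadd45b rose by 1.12 ± 0.10, Bik, a BH3-only gene that promotes apoptosis, by 0.96 ± 0.13, and Cflar, an inhibitor of caspase 8, by 0.73 ± 0.07. Averaged over probe sets Birc3 had 0.68 and Gadd45b 0.70, both still called, while Cflar had 0.56 and was not.

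Some enzymes and transporters of inflammatory mediators rose. Of 29 genes of itaconate, nitric oxide, superoxide and eicosanoid synthesis 19 were tested, of which 7 rose and 2 fell, with a median of 0.176, or 0.0265 over all 29. Ptgs2, which encodes cyclooxygenase 2, had 9.45 and 9.18 on the control arrays and 11.47 and 11.42 on the LPS arrays and rose by 2.13 ± 0.13 (adjusted p = 3.43e-05). The prostaglandin E2 receptor gene Ptger4 had 10.52 and 10.46 in control and 11.85 and 11.78 with LPS and rose by 1.33 ± 0.07 (adjusted p = 1.24e-05). Cybb, the catalytic subunit of the phagocyte oxidase, had 12.21 and 12.04 in control and 13.17 and 13.15 with LPS and rose by 1.03 ± 0.08. All LPS arrays of Ptgs2, Ptger4 and Cybb were above all control arrays. Sod2, a mitochondrial superoxide dismutase, rose by 1.45 ± 0.07, the arginine transporter gene Slc7a2 by 1.06 ± 0.09, and Hmox1, which breaks down heme, by 0.70 ± 0.06. The 2 falls were in enzymes of other eicosanoid branches: Hpgds, a prostaglandin D2 synthase, by 0.76 ± 0.14 and Alox5, the 5-lipoxygenase, by 0.61 ± 0.10. Other eicosanoid genes of the list, Lta4h, Alox5ap, Pla2g4a and Ptges2, were tested and not called. Hpgds was not called with control array 2 left out (-0.67), and Alox5 was not called with LPS array 2 left out (-0.47).

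Among 16 tested genes of metal handling 2 rose, and the metal transporter gene Slc11a2 led them with 8.06 and 8.0 in control and 9.78 and 9.69 with LPS, a rise of 1.71 ± 0.07 (adjusted p = 4.29e-06). The cystine transporter gene Slc7a11 rose by 2.21 ± 0.12, or by 1.11 averaged over its probe sets, and Srxn1, which repairs peroxiredoxins, rose by 0.87 ± 0.07. They were 2 of 29 tested genes of redox control and amino acid supply that rose (6.9%, beside 3.17% of all genes). Another 2 fell (6.9%, beside 2.96%). One of these, the stress-induced pseudokinase gene Trib3, fell by 0.77 ± 0.10. The other, Chac1, which degrades glutathione, fell by 0.60 ± 0.11 and was not called when quantile normalized (-0.56), with control array 2 left out (-0.42) or with LPS array 2 left out (-0.55).

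Of 26 tested genes of glycolysis and hypoxia 3 rose and 1 fell. Hk2, which catalyses the first step of glycolysis, had 9.75 and 9.81 in control and 10.71 and 10.71 with LPS and rose by 0.93 ± 0.06 (adjusted p = 5.37e-05). The glucose transporter gene Slc2a1 had 13.45 and 13.43 in control and 14.05 and 14.09 with LPS and rose by 0.63 ± 0.06. Ldha, which makes lactate, had a log2 fold change of -0.05 ± 0.07 and was not called. The third rise was Pfkfb3, an activator of glycolysis, at 0.66 ± 0.12. It was not called averaged over its probe sets (0.37), with control array 1 left out (0.47) or with LPS array 2 left out (0.57). Ddit4, an inhibitor of mTOR, had 6.64 and 6.93 in control and 6.05 and 6.04 with LPS and fell by 0.74 ± 0.09. None of 33 tested genes of the TCA cycle and respiration and none of 22 of cholesterol synthesis was called, with medians of -0.0759 and 0.0444 and, at the adjusted p alone, 1 higher gene in the former and 2 in the latter, beside 9.13% of all genes higher. Over all genes 3.17% were called higher and 2.96% lower, so few calls could be looked for in lists of this size. In the list of lipid handling by liver X receptors 1 of 22 tested genes rose (4.55%), the fatty acid binding protein gene Fabp4, at 1.05 ± 0.08. It was not called averaged over its probe sets (0.48).

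**Figure D3:**
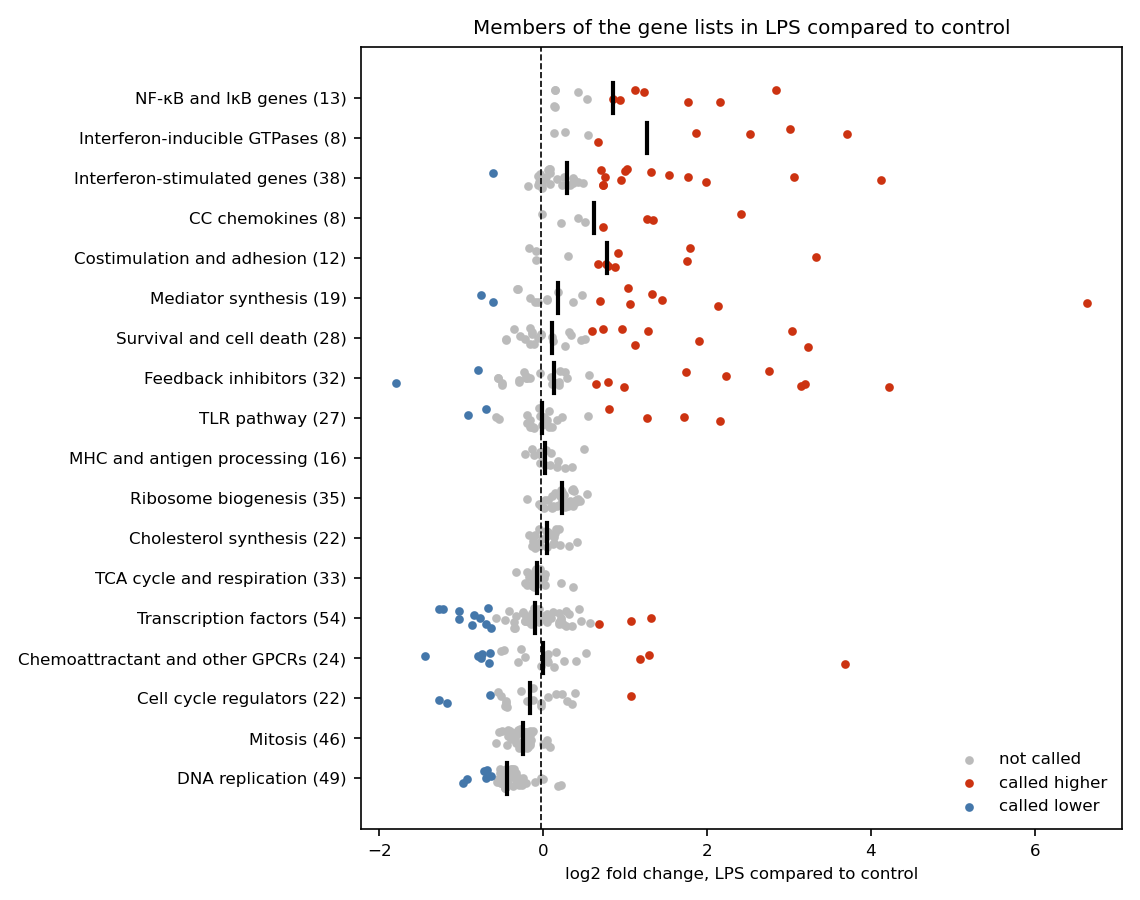
Log2 fold change of LPS compared to control (x axis) for the tested members of 18 of the 31 gene lists, with the number of members in parentheses, a black bar at each list's median and the dashed line at the median of all genes. NF-κB family genes and GTPases lie to the right of the line, DNA replication and mitosis genes lie almost wholly to its left, and the widest spread is in mediator synthesis, where Acod1 stands at 6.64.

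The largest fall, in the interleukin-18 receptor gene Il18rap, came with 7.83 and 7.85 on the control arrays and 6.10 and 5.14 on the LPS arrays, a fall of 2.22 ± 0.26 on the log2 scale (adjusted p = 0.000934). Its LPS arrays lay far apart, though both under both control arrays, and averaged over its probe sets it fell by 1.41. St6gal1, a sialyltransferase gene, had 6.84 and 6.85 in control and 4.60 and 5.08 with LPS and fell by 2.01 ± 0.14, or by 1.00 averaged over its probe sets. Both groups of its arrays were apart. Eps8, an actin-capping adaptor, had 10.15 and 10.24 in control and 8.16 and 8.43 with LPS and fell by 1.90 ± 0.16 (adjusted p = 0.000164). Cytip, which modulates integrin adhesion, had 9.22 and 9.33 in control and 7.32 and 7.47 with LPS and fell by 1.88 ± 0.08 (adjusted p = 4.31e-06). The small GTPase gene Rap2a had 9.05 and 9.04 in control and 7.48 and 7.46 with LPS and fell by 1.57 ± 0.08, or by 0.79 averaged over its probe sets. In Eps8, Cytip and Rap2a replicates lay closer to each other than to the other group. Map3k5, which encodes the stress kinase ASK1, had 6.74 and 6.80 in control and 4.83 and 5.59 with LPS and fell by 1.56 ± 0.21 (adjusted p = 0.00167). Pald1 fell by 1.51 ± 0.07, Rell1 by 1.52 ± 0.09, Pxdc1 by 1.52 ± 0.10, and Elmo2, an engulfment adaptor, by 1.49 ± 0.14, the last with -0.85 averaged over its probe sets. Kbtbd11, Rnf144b and Etl4 had log2 fold changes of -1.71, -1.60 and -1.56, and averaged over their probe sets they had -0.43, -0.56 and -0.25 and were not called. Mex3b, an RNA-binding protein gene, fell by 1.45 ± 0.34, and was not called with no filter (-1.45) or without the first control (-1.31), second control (-1.58) or first LPS array (-0.97).

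Of 54 tested transcription factor genes 10 fell and 3 rose, with a median of -0.103. Klf4, a factor of macrophage differentiation, had 9.57 and 9.37 on the control arrays and 8.23 and 8.16 on the LPS arrays and fell by 1.27 ± 0.10 (adjusted p = 0.000115). Bhlhe40 had 8.30 and 8.29 in control and 7.40 and 7.50 with LPS and fell by 0.84 ± 0.08 (adjusted p = 0.00038). Egr1, an early response factor, had 7.67 and 7.50 in control and 6.92 and 6.70 with LPS and fell by 0.77 ± 0.11 (adjusted p = 0.00184). Each of these genes had its LPS arrays below its control arrays by more than the distance between replicates. Klf2 fell by 1.02 ± 0.18, Id1, an inhibitor of helix-loop-helix factors, by 0.69 ± 0.07, and Maf, a factor of resident macrophages, by 0.64 ± 0.11. Mef2c fell by 1.22 ± 0.22 and Runx3 by 1.02 ± 0.11. Mef2c was not called with control array 1 left out (-1.05), nor Runx3 averaged over its probe sets (-0.51). The rises were Cebpd, at 1.31 ± 0.08 with 9.71 and 9.79 in control and 11.09 and 11.03 with LPS, Myc, at 1.07 ± 0.07, and Cebpb, at 0.68 ± 0.07. C/EBPβ and C/EBPδ are known partners of NF-κB at acute phase and cytokine genes.

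Some receptors for chemoattractants and regulators of G proteins fell. Of 24 tested G protein-coupled receptors and RGS proteins 6 fell and 3 rose. Cxcr4, the receptor of CXCL12, had 12.01 and 11.91 on the control arrays and 10.66 and 10.38 on the LPS arrays and fell by 1.44 ± 0.10 (adjusted p = 5.24e-05). Rgs14, Rgs18 and Rgs1, which switch off G proteins, fell by 0.75 ± 0.08, 0.76 ± 0.11 and 0.79 ± 0.10. On the side of the rises, Gpr84, a receptor of medium-chain fatty acids, had 13.27 and 13.28 with LPS and rose by 1.29 ± 0.07 (adjusted p = 2.41e-05), and Ccrl2, a chemerin-binding receptor, had 5.72 and 5.53 in control and 6.75 and 6.86 with LPS and rose by 1.18 ± 0.09. The arrays of Cxcr4, Gpr84 and Ccrl2 did not overlap between groups, and these genes were picked by their change on the same arrays. Of 27 tested cytokine receptor genes 2 rose (7.41%) and 3 fell (11.1%), beside 3.17% and 2.96% of all genes. Tnfrsf1b, which encodes TNF receptor 2, had 9.98 and 9.91 in control and 11.81 and 11.67 with LPS and rose by 1.79 ± 0.08, or by 1.06 averaged over its probe sets. The third fall beside Il18rap and Tgfbr2 was Il17ra, at -0.62, not called averaged over its probe sets (-0.24), when quantile normalized (-0.57), with control array 2 left out (-0.52) or with LPS array 1 left out (-0.47). The TGF-β receptor gene Tgfbr2 had 12.82 and 12.81 in control and 12.10 and 11.98 with LPS and fell by 0.78 ± 0.07 (adjusted p = 0.000165), and was not called averaged over its probe sets (-0.44).

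Receptors of uptake moved in both directions: of 29 tested genes 5 rose and 4 fell. Marco, a scavenger receptor of bacteria, had 8.61 and 8.74 on the control arrays and 9.86 and 9.86 on the LPS arrays and rose by 1.18 ± 0.07 (adjusted p = 2.88e-05). Clec4e, which encodes the mycobacterial glycolipid receptor Mincle, had 12.82 and 12.96 in control and 14.18 and 14.13 with LPS and rose by 1.26 ± 0.08 (adjusted p = 4.76e-05). The activating Fc receptor genes Fcgr1 and Fcgr3 had 10.60 and 10.91 in control and 9.84 and 9.89 with LPS and 12.92 and 13.09 in control and 12.17 and 12.06 with LPS, respectively. They fell by 0.89 ± 0.10 and 0.89 ± 0.10. Fcgr2b, the inhibitory Fc receptor, had 13.90 and 13.89 in control and 14.56 and 14.49 with LPS and rose by 0.64 ± 0.06 (adjusted p = 0.000446). Control and LPS arrays were separate for these 3 Fc receptor genes. Fcgr4, another activating Fc receptor gene, had -0.16 ± 0.08 (adjusted p = 0.22) and was not called. The paired receptor genes Pilra and Pilrb1 rose by 0.75 ± 0.06 and 1.48 ± 0.12. The integrin genes Itgav and Itgb5, whose products form a receptor of apoptotic cells, fell by 0.71 ± 0.07 and 0.59 ± 0.08. Some of these genes were not called under an alternative: Fcgr2b (0.51) and Itgav (-0.36) averaged over their probe sets, and Itgb5 (-0.55) with LPS array 1 left out.

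Of 39 tested genes of integrins and the cytoskeleton 9 rose and 5 fell. Rassf4, a protein of the Ras association family, had 10.90 and 10.87 in control and 12.40 and 12.60 with LPS and rose by 1.61 ± 0.08 (adjusted p = 1.24e-05), and the exchange factor gene Arhgef3 had 7.42 and 7.23 in control and 8.96 and 8.80 with LPS and rose by 1.56 ± 0.10. Swap70, an actin-binding protein of membrane ruffles, rose by 1.35 ± 0.06 and Marcksl1, an actin-linked substrate of protein kinase C, by 1.17 ± 0.07. Beside Cytip and Rap2a, Arhgap18, a GTPase-activating protein gene, fell by 0.62 ± 0.10 and the Rac exchange factor gene Tiam1 by 1.16 ± 0.18, and averaged over their probe sets neither Arhgap18 (-0.31) nor Tiam1 (-0.37) was called. Arhgap18 was also not called when quantile normalized (-0.56) or with control array 1 (-0.48) or LPS array 1 (-0.55) left out. The integrin gene Itga6 had 9.02 and 8.99 in control and 8.05 and 7.92 with LPS and fell by 1.02 ± 0.09 (adjusted p = 0.000178). Among 21 tested proteases and inhibitors 3 rose and 1 fell, namely Plau, the urokinase that activates plasminogen, which had 10.89 and 10.98 in control and 9.89 and 9.82 with LPS and fell by 1.08 ± 0.07 (adjusted p = 5.92e-05). Slpi, an inhibitor of neutrophil elastase, rose by 0.64 ± 0.08 and the cathepsin gene Ctsh by 0.62 ± 0.08. Of 30 tested glycosyltransferases 2 rose (6.67%) and 3 fell (10%), beside 3.17% and 2.96% of all genes. The polysialyltransferase gene St8sia4 had 12.61 and 12.65 in control and 11.27 and 11.36 with LPS and fell by 1.32 ± 0.07 (adjusted p = 1.3e-05), and the sialyltransferase gene St3gal3 had 7.52 and 7.50 in control and 8.95 and 9.07 with LPS and rose by 1.5 ± 0.07, or by 0.76 averaged over its probe sets. The groups did not overlap in Rassf4, Itga6, Plau, St8sia4 or St3gal3, all picked by their change on these same arrays.

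DNA replication genes were lower under LPS almost throughout, by less than 1.5-fold in most. Of 49 tested genes 6 fell and none rose, but 47 had a log2 fold change below 0 and the median was -0.447, where 5083 of all 8908 genes were below 0. At the adjusted p alone 40 of the 49 were lower and none higher, beside 12.6% of all genes lower. In bulk RNA fewer cells in S phase or mitosis and less RNA per cell cannot be told apart. Both LPS arrays lay below both control arrays in 45 of the 49 genes (91.8%), beside 37.9% of all genes. The mean signal of the list was 10.49 and 10.51 on the control arrays and 10.08 and 10.09 on the LPS arrays. Dscc1, which helps to join sister chromatids, had 9.82 and 9.97 on the control arrays and 8.83 and 9.01 on the LPS arrays and fell by 0.98 ± 0.14 (adjusted p = 0.00245). The thymidine kinase gene Tk1 had 10.98 and 10.99 in control and 10.29 and 10.23 with LPS and fell by 0.72 ± 0.10 (adjusted p = 0.0018). Slbp, which binds the ends of histone mRNAs, had 12.25 and 12.20 in control and 11.61 and 11.57 with LPS and fell by 0.63 ± 0.06 (adjusted p = 0.000439). Chaf1b, a histone chaperone of replicated DNA, fell by 0.93 ± 0.18, Clspn, an adaptor of the replication checkpoint, by 0.70 ± 0.09, and E2f1, the factor that drives S phase genes, by 0.69 ± 0.12. Rrm2, a subunit of ribonucleotide reductase, had -0.53 ± 0.06 and the helicase gene Mcm2 -0.47 ± 0.10, both under the fold minimum. Averaged over probe sets Dscc1 (-0.49), Chaf1b (-0.46), Clspn (-0.41), E2f1 (-0.43) and Slbp (-0.17) were not called while Rrm2 (-0.59) was, and the list's median was -0.425. With LPS array 2 left out Chaf1b (-0.79) and E2f1 (-0.53) were not called, nor was Chaf1b with control array 2 left out (-0.86).

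Genes of mitosis were lower by a small amount. None of 46 tested genes was called (by limma at an adjusted p and 1.5-fold), 43 were below 0, and the median was -0.244. At the adjusted p alone 26 were lower and none higher, beside 12.6% of all genes lower. Both LPS arrays lay below both control arrays in 42 of the 46 (91.3%), beside 37.9% of all genes. Mki67, a marker of dividing cells, had 13.49 and 13.48 on the control arrays and 13.11 and 13.11 on the LPS arrays, a log2 fold change of -0.37 ± 0.06 (adjusted p = 0.0038). The mitotic kinase gene Plk1 had 10.27 and 10.17 in control and 10.01 and 9.88 with LPS, a log2 fold change of -0.28 ± 0.07. Regulators of the cycle moved both ways: of 22 tested genes 3 fell and 1, Myc, rose. The cyclin-dependent kinase inhibitor gene Cdkn2c had 9.02 and 9.09 in control and 7.78 and 7.80 with LPS and fell by 1.27 ± 0.07 (adjusted p = 2.61e-05), and Ccng2, an atypical cyclin of arrested cells, had 9.06 and 9.12 in control and 7.77 and 8.06 with LPS and fell by 1.17 ± 0.11. The third fall, in the cyclin gene Ccnd3, was 0.65 ± 0.09, and it was not called averaged over its probe sets (-0.21) or with LPS array 1 left out (-0.55).

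In contrast, genes of ribosome biogenesis were higher by a small amount. None of 35 tested genes was called, yet 32 were above 0 with a median of 0.23, and their range was -0.198 to 0.534. At the adjusted p alone 14 were higher and none lower, beside 9.13% of all genes higher, and 25 had both LPS arrays above both control arrays (71.4%), beside 27.3% of all genes. The mean signal of the list was 10.72 and 10.72 in control and 10.95 and 10.92 with LPS. Nop56, a component of nucleolar ribonucleoproteins, had 12.77 and 12.69 in control and 13.05 and 12.95 with LPS, a log2 fold change of 0.27 ± 0.07 (adjusted p = 0.0256). The sign of the medians of replication, mitosis and ribosome biogenesis was the same under other filters, probe set choices and normalizations and with any control or LPS array left out. Alternatives of the test, fold minimum or replicate block leave these medians as they are and cannot test their sign.

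**Figure D4:**
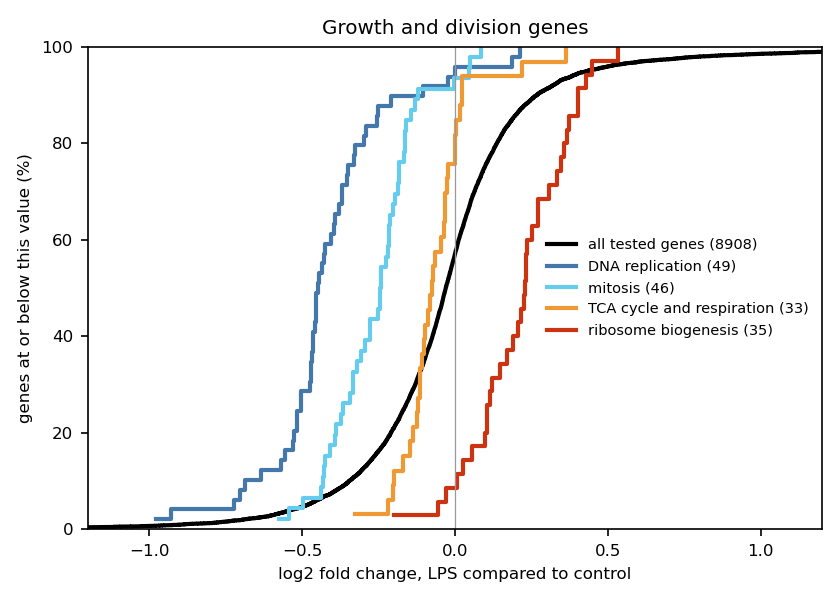
Share of genes (y axis, %) at or below a given log2 fold change of LPS compared to control (x axis) for all tested genes and for 4 gene lists, with the number of genes in parentheses. The curve of DNA replication, with its median at -0.447, and that of mitosis, at -0.244, lie to the left of all genes over most of their height, and that of ribosome biogenesis, at 0.23, lies to the right of them.

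The promoters of a replication gene and a mitosis gene are shown because a motif is frequent in each of these lists. Lists and motifs were chosen with earlier results known. The share of a motif in a list depends on the list's members and not on their response to LPS. Capitals mark an E2F-type motif in Mcm5 (TTTNNCGC with C or G at each N, either strand) and the cell cycle homology motif TTTGAA in Mki67, within the 250 bases before the start (RefSeq, GRCm38.p6). Mcm5, a helicase gene with a log2 fold change of -0.35 ± 0.11 (adjusted p = 0.0512, not called), is read from chr8:75109259-75109508 on the plus strand. Mki67, at -0.37, is read from chr7:135716380-135716629 on the minus strand.
Mcm5: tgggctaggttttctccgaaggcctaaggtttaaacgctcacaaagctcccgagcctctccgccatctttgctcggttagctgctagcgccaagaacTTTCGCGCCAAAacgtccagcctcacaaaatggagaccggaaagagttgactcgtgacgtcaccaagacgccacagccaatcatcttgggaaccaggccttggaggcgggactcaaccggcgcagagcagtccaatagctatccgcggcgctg
Mki67: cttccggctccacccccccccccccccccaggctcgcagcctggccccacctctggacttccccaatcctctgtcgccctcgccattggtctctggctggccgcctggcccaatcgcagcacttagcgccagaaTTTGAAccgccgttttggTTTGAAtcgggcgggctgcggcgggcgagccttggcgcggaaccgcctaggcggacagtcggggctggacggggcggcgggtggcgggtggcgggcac
In Mcm5 the matches overlap and run from 153 to 142 bases before the start, and in Mki67 they lie 116 to 111 and 98 to 93 bases before it. The E2F-type motif was in 16 of the 39 promoters found for replication genes (41.0%), in 3 of the 38 for mitosis genes (7.89%) and in 5.29% of those of all tested genes. TTTGAA was in 28 of the 38 promoters of mitosis genes (73.7%), in 7 of the 39 of replication genes (17.9%), in 1029 of the 7356 of all tested genes and in 20.2% of those of all genes. Over all called genes the E2F-type motif was in 8.17% of fallen and 1.34% of risen genes, and TTTGAA in 13.5% and 12.1%. Of the called replication genes with a promoter only Clspn held the E2F-type motif.

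Several genes of the LPS response lay under the filter on low signal. A fit with no filter called 18 genes higher and 20 lower among the 9285 genes under it. Il1b, which encodes interleukin-1β, had 3.10 and 3.08 in control and 5.90 and 5.41 with LPS and was called higher in that fit (adjusted p = 0.000798), though not by the methods' t-test. Hcar2, a receptor of nicotinic acid and hydroxybutyrate, and the activation marker Cd69 were picked after their values were seen. Hcar2 had 2.74 and 2.39 in control and 6.12 and 6.01 with LPS, Cd69 had 3.07 and 3.57 in control and 6.84 and 6.59 with LPS, and both were called higher in the same fit. The control signals of Il1b, Hcar2 and Cd69 were too low to measure the size of a change. Among the genes called lower in that fit was Gas6, with 5.14 and 5.25 in control and 4.37 and 3.78 with LPS. Gbp8, with 4.89 and 4.64 in control and 3.40 and 3.38 with LPS, was also called lower. Gas6 and Gbp8 were likewise picked after their values were seen, and their LPS signals were low. Other known targets of LPS had low signals on all 4 arrays: Il6 had 2.31 and 2.29 in control and 2.38 and 2.66 with LPS, Il10 had 2.18 and 2.16 in control and 2.17 and 2.19 with LPS, and Nos2, the inducible nitric oxide synthase gene, had 1.92 and 1.89 in control and 1.91 and 1.91 with LPS. A change at such signals could not be measured, and no lack of expression can be read from them.

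The same LPS treatment after menthol, LPS+M compared to M, is a comparison with no array in common with LPS compared to control, though both draw on the same estimate of the spread. In it 213 genes rose (2.39%) and 158 fell (1.77%). Of the 282 genes that rose under LPS alone, 181 rose there too (64.2%), which is 181 of its 213, and 275 had the same sign (97.5%), beside 43.1% of all genes above 0. Of the 264 that fell, 105 fell there too (39.8%), which is 105 of its 158, 1 rose, and 257 had the same sign (97.3%), beside 56.9% of all genes below 0. Since these genes were chosen by their call under LPS alone, sizes of the 2 responses over them are not compared. Acod1 had 6.64 and 6.98, Tnf 2.50 and 2.22, Nfkbiz 2.84 and 2.67, and Cytip -1.88 and -2.24.

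The difference between both responses, tested as an interaction, passed in 21 genes (0.236%), and 20 of them were among the risen genes and none among the fallen. In 17 of the 20 the response after menthol was smaller and in 3 it was larger. The LPS and control arrays enter both the call of a rise and the interaction. Choosing risen genes therefore favours smaller responses after menthol, so this overlap and split are partly set by the choice. The largest difference was in Ifit1, whose signal was 3.84 and 3.56 in M and 4.14 and 4.59 in LPS+M, so that its response after menthol was 0.67 instead of 4.12. Rtp4 had 6.13 and 6.38 in M and 5.85 and 5.99 in LPS+M and responses of 1.76 and -0.33. Saa3 had 7.33 and 7.10 in M and 10.84 and 10.63 in LPS+M and responses of 5.18 and 3.52. Cd83, a marker of activated antigen-presenting cells, was the opposite, with 4.78 and 5.17 in M and 8.10 and 8.37 in LPS+M and responses of 0.87 and 3.25. In LPS alone Cd83 had 3.93 and 4.36 in control and 5.00 and 5.03 with LPS, and with control array 1 left out it had 0.66 and was not called. The count of 20 was 3 without control array 1, 11 without control array 2, 4 without M array 1, 2 without M array 2, 3 without LPS+M array 1, 25 without LPS+M array 2 and 0 with no filter.

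**Figure D5:**
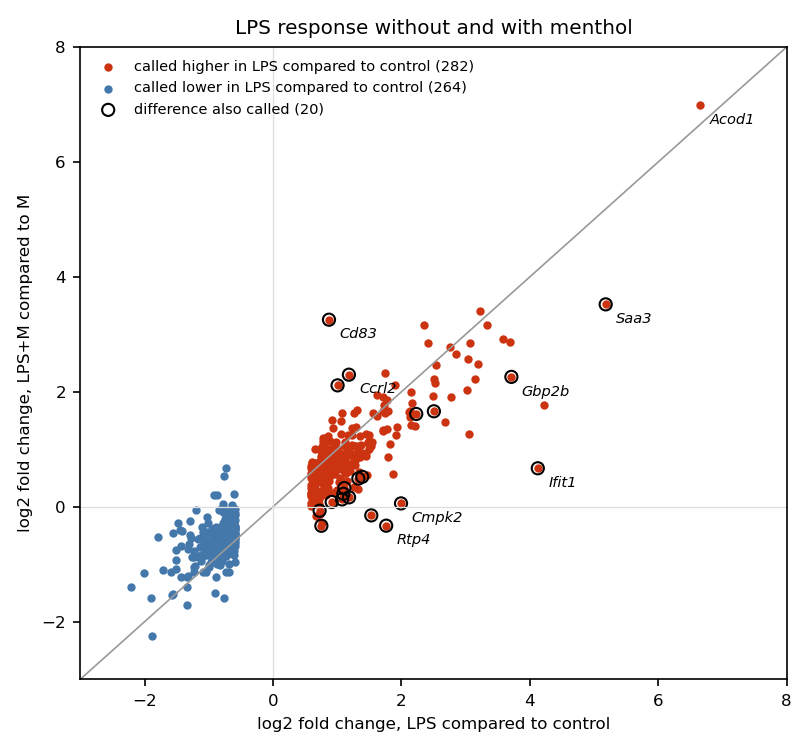
Log2 fold change of LPS+M compared to M (y axis) against that of LPS compared to control (x axis) for the 282 risen and 264 fallen genes, with the grey line where both are equal. Open circles mark the 20 genes with a called difference: 17 lie below the line, Ifit1 farthest from it, and 3 above, among them Cd83. The genes were picked by their change on the x axis, which favours points of risen genes below the line.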

How the data were processed

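RNA of 8 RAW 264.7 samples, 2 per group, was measured on Affymetrix Mouse Genome arrays with 45101 probe sets. The deposited values are log2 signals that the authors made by GC-RMA; the submitters' processing notes name GCRMA 2.10.0 and R 2.6.1. Background correction can compress low signals. Genes were named through the platform annotation (34945 probe sets with 1 symbol, 932 with several, 9160 with none, 64 controls). For 18193 genes the probe set of highest mean over the 8 arrays was taken, and the 8908 genes above 4.84, the overall mean signal, were tested. LPS compared to control, LPS+M compared to M and their difference were contrasts of 1 limma fit (limma 3.58.1, R 4.3.3) to the 8 arrays, with Benjamini-Hochberg adjustment over all tested genes and called at an adjusted p under 0.05 and at least 1.5-fold. Residual degrees of freedom were 4. By exact permutation, 2 against 2 arrays cannot reach 0.05. The fit was tested on simulated data.

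Members, 31 gene lists and motifs were chosen with earlier results of these data known. Named genes were drawn from the 15 largest rises and falls, the first 4 and up to 8 called members of each list, all members of lists under 13 genes, genes the study names, up to 10 interactions, markers, and genes beside the threshold. Not every gene of these kinds is named. Alternatives were run for 173 named genes, of which 159 were called, so most uncalled members of the lists are not shown. Promoters came from RefSeq (GRCm38.p6). Alternatives changed the filter, probe set choice, normalization, test, fold minimum, replicate block and arrays.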

Additional observations from a re-analysis of the deposited data

Results flagged for a closer look

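The response to LPS differed with menthol, by the interaction in limma, in 20 genes called under LPS alone. That call and the interaction share the LPS and control arrays, which favours smaller responses after menthol among risen genes. On the log2 scale the response after menthol minus that without it was -3.46 in Ifit1, -2.09 in Rtp4, -1.94 in Cmpk2, -1.68 in Usp18 and -0.80 in Ifit2, 5 interferon-stimulated genes. It was -1.66 in Saa3, -1.45 in Gbp2b, -1.08 in Inka1, -1.02 in Marco, -0.95 in Myc, -0.87 in Otud1, -0.87 in Pde4b, -0.84 in Cyria, -0.84 in Ptger4, -0.83 in Clec2d, -0.79 in Gphn and -0.62 in Irak3. It was positive in Hivep3 at 1.11, Ccrl2 at 1.12 and Cd83 at 2.38. The count of 20 was 2 without M array 2, 3 without control array 1 or LPS+M array 1, 4 without M array 1 and 11 without control array 2.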

How the results depend on the processing

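The 282 higher and 264 lower genes became 813 and 1122 with no minimum fold and 126 and 58 with at least 2-fold. The methods' t-test at an unadjusted p under 0.05 called 205 and 144, and after Benjamini-Hochberg adjustment 0 and 0, while limma at an unadjusted p called 288 and 274. Leaving out 1 control or LPS array gave 267 to 293 higher and 237 to 337 lower genes. The replicate numbers did not pair the arrays (correlation of deviations between control and LPS 0.0631), and with the replicate block 283 were higher and 266 lower and no named gene changed its call. Of 159 named genes called, 122 kept the call under every alternative other than the methods' t-test and the 2-fold minimum, 48 were not called by the methods' t-test at an unadjusted p, and 27 were not called when averaged over their probe sets. Other filters, normalizations and variance settings kept both counts within 1.5 times. The 20 genes whose response differed with menthol were 0 with no filter and 3 to 20 with 1 control or LPS array left out. In leave-outs of M and LPS+M arrays, chosen after seeing the data, they were 2 to 25, and the 181 higher and 105 lower genes also called after menthol came to 257 to 285 together; the cause was not tested. Precision is limited by the 2 arrays per group, and changes near the lowest signals cannot be measured.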
